A study of Mus musculus with 18 samples.

Results

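Wild-type (wt) embryoid bodies (EBs) were compared between day 16 and day 4 of differentiation over every probe set of the array. The comparison was chosen by genotype and day alone. It takes 4 of the 18 arrays of the study, 2 of day 16 EBs and 2 of day 4 EBs. All 35512 probe sets were tested, and 19938 genes had a probe set with 1 gene symbol, of which the one with the highest mean signal stands for the gene. The wt EBs grew in hanging drops from J1 embryonic stem cells (ESCs) of strain 129Sv/Jae with intact DNA methyltransferase genes. Undifferentiated wt ESCs (day 0, 2 arrays) are given beside them as a description. EBs of 2 mutant J1 lines at the same days, with 2 arrays each, served to ask where the wt change differed. *Dnmt1*-/- lacks the enzyme that maintains DNA methylation, and TKO lacks Dnmt1 together with the *de novo* enzymes Dnmt3a and Dnmt3b. Each genotype was represented by 1 J1 line, and the EBs grew in the ESC medium without LIF, with no factor named that would direct them towards a lineage. The 2 arrays of a group are biological duplicates by the study's methods, so the p-values rest on the spread between duplicates.

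EBs are aggregates that ESCs form once they are no longer held in the pluripotent state. In their first days cells pass through states that resemble the epiblast and the primitive streak, from which mesoderm and endoderm arise. Later EBs hold visceral endoderm, which like the yolk sac and the fetal liver secretes plasma proteins, as well as beating cardiomyocytes, vessels, blood cells, connective tissue and epithelia. Because whole EBs were lysed, a lower signal from fewer cells of a type and one from less RNA per cell cannot be told apart.

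Signals are RMA values on a log2 scale, so that a difference of 1 is a 2-fold change. Array medians ran from 5.77 to 5.90, and the correlation between duplicates over all probe sets, which are no independent samples, was 0.981 to 0.991. In 19 genes the 2 day 16 arrays differed by more than 2, against 10 genes between the 2 day 4 arrays. These include the embryonic globins and placental genes at day 16, and *Hbb-bh1* and genes of the response to low oxygen at day 4, and their arrays are given one by one below. The cell type markers were checked against the labels. All 5 hepatocyte or visceral endoderm markers, all 5 stromal markers, all 5 macrophage markers and 4 of 5 cardiomyocyte markers were called higher at day 16. Fewer were called higher for smooth muscle (3 of 5), endothelium (2 of 5, with *Kdr* called lower) and squamous epithelium (2 of 3). None was called higher for red cells (0 of 5) or neurons (0 of 5, with *Stmn2* called lower). Of the 5 ESC markers *Sox2* was called higher, *Pou5f1* was called lower and *Nanog*, *Zfp42* and *Esrrb* had no call. Of 4 streak markers none was called higher, and *Eomes* and *Mixl1* were called lower. Each log2 fold change below is day 16 over day 4 with the SE of the limma fit, and each adjusted p is the Benjamini-Hochberg value over all probe sets of that comparison. A gene was called when it changed at least 2-fold with an adjusted p under 0.05.

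At day 16, 1218 of 19938 genes were called higher than at day 4 (6.11%) and 434 were called lower (2.18%). All counts of called list members in wt EBs below are to be read against these shares. Over all probe sets the calls were 1398 higher (3.94%) and 685 lower (1.93%), and 8803 probe sets had an unadjusted p under 0.05. Rises were the larger changes. A log2 fold change of at least 3 was reached by 140 genes called higher and 6 called lower, and one of at least 5 by 23 genes called higher and 0 called lower. The median log2 fold change was 1.51 over the genes called higher, -1.19 over those called lower and -0.05 over all genes. Genes called higher had a median signal of 7.51 at day 16, against 5.54 at day 4. In undifferentiated ESCs their median was 5.64, and 1037 of the 1218 lay within 1 log2 unit of their day 4 signal there. Of the 434 genes called lower, 323 were within 1 log2 unit of their day 4 signal in ESCs and 93 were lower in ESCs by at least that much, so that these 93 peaked at day 4 among the days sampled. The 434 genes were chosen for a day 4 signal above that of day 16, so a peak at day 4 is partly set by that choice, and it was not tested. In every called gene both day 16 arrays lay on one side of both day 4 arrays, which also held for 4590 genes in the direction of a rise and 5646 in that of a fall among all genes. With day 16 replicate 2 left out, 321 probe sets were called lower, and with replicate 1 left out 1054. A fit of only the arrays compared called 917 higher and 313 lower.

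**Figure D1:**
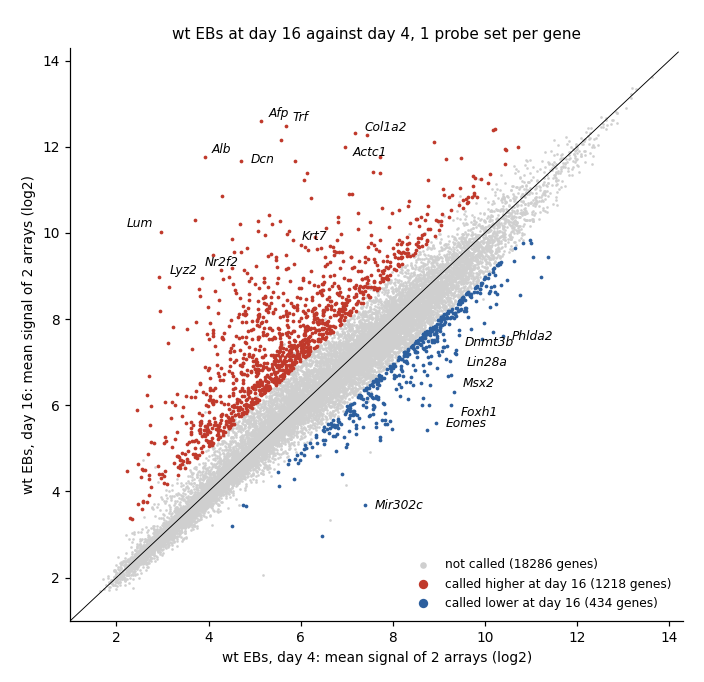
Mean log2 signal of 2 arrays in wt EBs at day 16 (vertical axis) against day 4 (horizontal axis) for 19938 genes, 1 probe set each, with the line of equal signal. The 1218 genes called higher at day 16 (red) reach far from the line, up to 7.84 for *Alb*, while the 434 called lower (blue) lie closer to it, down to -3.72 for *Mir302c*.

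Secreted plasma proteins showed the highest rises of the comparison. Of 32 measured genes of this list 26 were called higher and 0 lower, against 6.11% of all genes called higher, and the median log2 fold change of the list was 3.02. *Alb*, which encodes the main carrier protein of blood plasma, had signals of 11.33 and 12.19 at day 16, against 3.82 and 4.03 at day 4. This is a log2 fold change of 7.84 ± 0.35, or 229-fold (adjusted p = 6.8e-08). Its day 4 signals lay under 4.44, the first quartile over all probe sets on the day 4 arrays. *Afp*, its fetal counterpart in yolk sac and liver, had 12.72 and 12.48 at day 16, against 4.99 and 5.31 at day 4, a rise of 7.45 ± 0.35 (175-fold, adjusted p = 9e-08). The 2 genes neighbour each other on chromosome 5, where their annotated starts lie 29844 bases apart. *Trf*, the iron carrier transferrin, had 12.43 and 12.55 at day 16, against 5.77 and 5.59 at day 4 (log2 fold change 6.81 ± 0.19, adjusted p = 3.5e-09). *Ahsg*, the fetal glycoprotein fetuin-A, had 9.90 and 11.81 at day 16, against 4.10 and 4.50 at day 4 (log2 fold change 6.56 ± 0.46, adjusted p = 2.1e-06), with its 2 day 16 arrays further apart than those of the other 3 genes. *Ttr* and *Rbp4*, which together carry retinol, differed from these in that *Ttr* was already well above its ESC signals at day 4. *Ttr* had 12.27 and 12.26 at day 16, against 8.55 and 6.32 at day 4, and its ESC signals were 5.20 and 5.37. Its log2 fold change was 4.83 ± 0.62 (adjusted p = 0.00026), with most of the spread between the day 4 arrays.

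The promoters of 4 of the most changed genes of blood plasma are shown because their genes moved together and because 3 short motifs of liver and endoderm promoters can be read in them. They span 250 bases before to 50 bases after the annotated gene start and come from RefSeq on build GRCm38.p6. Capitals mark the TATA box, searched as TATAAA on the forward strand. They also mark the word GTTAAT on either strand, which is part of the sites of the HNF1 factors of liver and endoderm. The other capitals are the core word of GATA factors, spelled with A or T in front of GATAA and likewise searched on either strand.
Alb, chr5:90460620-90460919 (plus strand): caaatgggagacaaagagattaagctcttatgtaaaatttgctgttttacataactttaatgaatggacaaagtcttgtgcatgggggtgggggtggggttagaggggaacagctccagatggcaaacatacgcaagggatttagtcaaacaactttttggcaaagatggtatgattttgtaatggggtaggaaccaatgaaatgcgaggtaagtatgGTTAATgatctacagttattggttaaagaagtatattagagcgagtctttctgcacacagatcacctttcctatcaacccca
Afp, chr5:90490464-90490763 (plus strand): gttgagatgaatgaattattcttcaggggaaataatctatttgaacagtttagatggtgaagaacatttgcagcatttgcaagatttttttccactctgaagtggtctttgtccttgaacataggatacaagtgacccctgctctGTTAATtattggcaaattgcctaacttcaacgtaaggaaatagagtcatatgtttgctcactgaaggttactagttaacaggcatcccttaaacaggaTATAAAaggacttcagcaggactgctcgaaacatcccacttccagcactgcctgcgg
Ahsg, chr16:22891765-22892064 (plus strand): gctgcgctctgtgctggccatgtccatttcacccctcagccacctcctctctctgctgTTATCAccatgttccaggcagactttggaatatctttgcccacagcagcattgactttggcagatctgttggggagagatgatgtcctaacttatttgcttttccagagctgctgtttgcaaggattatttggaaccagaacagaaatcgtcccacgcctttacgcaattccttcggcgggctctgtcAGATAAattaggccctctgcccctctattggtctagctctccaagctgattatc
Apoa1, chr9:46228380-46228679 (plus strand): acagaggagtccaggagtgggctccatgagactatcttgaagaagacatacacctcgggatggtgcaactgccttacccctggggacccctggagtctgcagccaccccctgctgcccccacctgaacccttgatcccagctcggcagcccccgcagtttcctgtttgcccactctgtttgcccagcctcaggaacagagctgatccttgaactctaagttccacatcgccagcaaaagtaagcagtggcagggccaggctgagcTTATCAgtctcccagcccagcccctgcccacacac

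Counted from the gene start as position 0, the HNF1 word began at -32 in *Alb* and at -105 in *Afp*, which also had TATAAA at -7. GATA letters began at -192 and -4 in *Ahsg* and at 15 in *Apoa1*. The reference table held promoters for 22 of the 32 plasma protein genes, and 36.4% of these had the HNF1 word, against 7.11% of the 15614 genes with a probe set and a promoter. TATAAA stood in 31.8% of the plasma protein promoters and in 33.3% of the 24 promoters of the lipoprotein list, against 8.71% of all these genes. Among all genes called higher, 12.6% of 917 promoters held TATAAA, and among those called lower 4.05% of 321. The GATA word was common, in 17.1% of all these genes. It stood in 31.8% of the plasma protein promoters and 25% of those of the lipoprotein list. Genes called higher had it in 18% of promoters and genes called lower in 9.97%. A matching word is a description of the sequence and not of binding.

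The remaining plasma proteins rose over a wide range. *Fgb* and *Fgg*, chains of fibrinogen, rose by 5.52 ± 0.18 and 4.73 ± 0.41, *Kng1* (kininogen) by 5.39 ± 0.33, *Ambp* (alpha-1-microglobulin) by 5.34 ± 0.22, *Vtn* (vitronectin) by 4.98 ± 0.32 and the corticosteroid carrier *Serpina6* by 4.90 ± 0.29. The members without a call include adult liver genes. *Hrg*, a plasma glycoprotein, had a mean signal of 3.0 at both days, and *Orm1* and *Hp*, acute phase proteins, had log2 fold changes of -0.09 and 0.66. Coagulation was split in the same way. Of 25 measured genes 12 were called higher, among them thrombin (*F2*, 2.90 ± 0.24) and tissue factor (*F3*, 2.07), while *F9*, *F11*, *F7* and *F12* lay between -0.23 and 0.28. *F13a1*, a factor XIII subunit that macrophages also make, rose by 4.54 ± 0.26.

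Lipid carriers rose with the plasma proteins. Of 34 measured genes 20 were called higher and 0 lower, with a median of 1.37, although the count was 11 when the fit was restricted to the arrays compared. *Apoa1*, the main protein of high density lipoprotein, had signals of 11.70 and 11.66 at day 16, against 5.58 and 6.17 at day 4 (log2 fold change 5.81 ± 0.31, adjusted p = 2.4e-07). *Apob*, the backbone of low density lipoprotein, rose by 4.82 ± 0.40, and *Mttp*, which loads lipid onto it, by 1.63 ± 0.27. *Cubn*, an uptake receptor of visceral endoderm, rose by 3.76 and *Fabp1*, the liver fatty acid binding protein, by 4.32 ± 0.42. *Apoe* was bright at both days, with means of 11.3 at day 16 and 10.3 at day 4, and its log2 fold change of 0.99 missed the 2-fold line.

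Transcription factors of endoderm changed by less than the plasma proteins, with a median of 0.59 against 3.02. Of 26 measured, 7 were called higher and 1 lower. *Hnf4a*, a regulator of hepatocytes and visceral endoderm, had 8.02 and 7.69 at day 16, against 6.11 and 6.01 at day 4 (log2 fold change 1.8 ± 0.26, adjusted p = 0.00065). *Foxa1*, which opens chromatin in endoderm, rose by 1.62 ± 0.22 and *Onecut1*, a factor of liver and pancreas, by 2.10 ± 0.18. The nuclear receptor *Nr2f2*, which is also used in mesenchyme, rose most, by 4.37 ± 0.19. *Foxa2* and *Gata4* had log2 fold changes of -0.13 and -0.20, and both were above their ESC means at day 4 already, at 6.8 and 8.8. *Cdx2*, a factor of the posterior epiblast, the intestine and the trophoblast, fell by 1.71 ± 0.24.

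Enzymes of liver and gut gave 17 calls higher and 0 lower among 32 genes. *Gsta3* (glutathione transferase) rose by 4.02 ± 0.19, *Adh1* (alcohol dehydrogenase) by 3.70 ± 0.30 and *Maob* (monoamine oxidase) by 3.66 ± 0.27. *Cps1* of the urea cycle rose by 2.02. For *Cyp7a1*, *Cyp2e1*, *G6pc* and *Tat*, enzymes of the mature liver, log2 fold changes lay between -0.08 and 0.19. *Tdo2*, which degrades tryptophan, had -2.59 ± 0.81 and no call (adjusted p = 0.052). Retinoid genes gave 8 calls higher of 19. Besides *Ttr* and *Rbp4* these were the enzymes *Dhrs3* (3.59 ± 0.29), *Aldh1a1* (2.80 ± 0.19), *Aldh1a2* (1.59) and *Rdh10* (1.38), the receptor *Rarb* (2.76 ± 0.20) and the gut binding protein *Rbp2* (1.68). *Cyp26a1*, which breaks down retinoic acid and marks the early posterior embryo, fell by 2.52 ± 0.49, a call that was lost without day 16 replicate 2, when the log2 fold change was -2.16. The call of *Aldh1a2* was lost without day 16 replicate 1 (1.38) or day 4 replicate 1 (1.26).

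**Figure D2:**
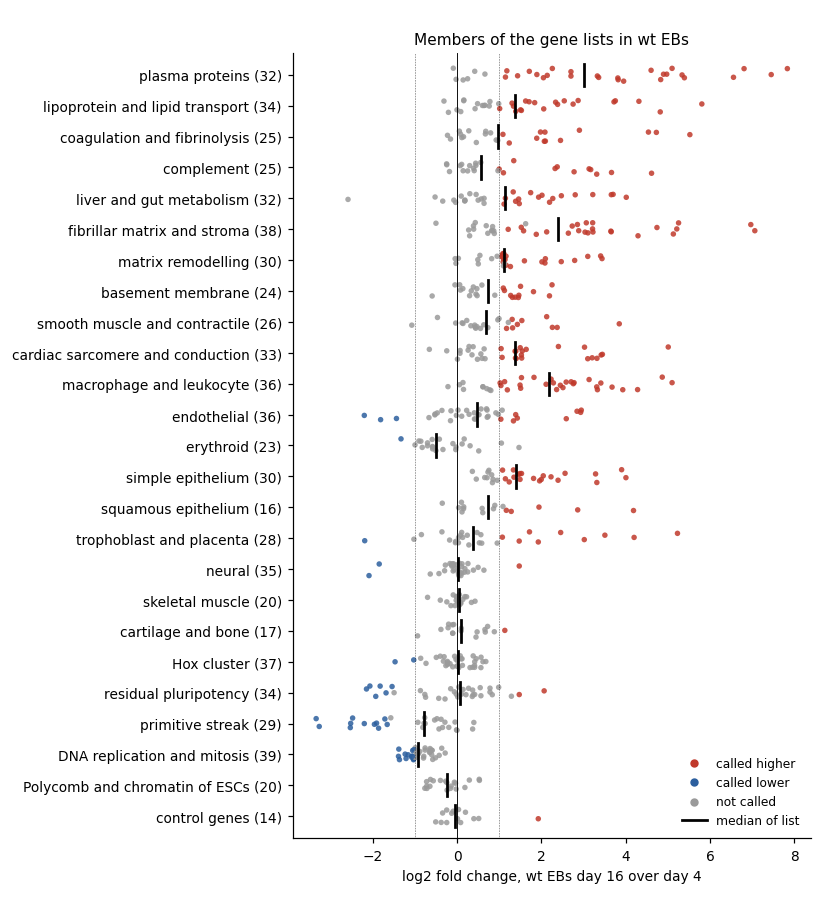
Log2 fold change (day 16 over day 4, wt EBs, horizontal axis) of every measured member of 25 gene lists (rows, number of members in brackets), coloured by call, with the list median as a bar and dotted lines at a 2-fold change. Plasma proteins (median 3.02), fibrillar matrix (2.38) and macrophage genes (2.17) spread far to the right, while primitive streak (-0.78) and replication genes (-0.93) lie left of 0.

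Connective tissue genes were the second group of large rises. In the list of fibrillar matrix and stroma 24 of 38 genes were called higher and 0 lower, with a median of 2.38. *Lum* and *Dcn* encode small proteoglycans that bind collagen fibrils. *Lum* had signals of 9.93 and 10.13 at day 16, against 3.03 and 2.89 at day 4, a log2 fold change of 7.07 ± 0.25 (134-fold, adjusted p = 9.6e-09). *Dcn* had 11.54 and 11.81 at day 16, against 4.49 and 4.92 at day 4 (6.97 ± 0.30, adjusted p = 5.4e-08). Both genes had signals in ESCs close to those of day 4. The fibril collagens followed with *Col3a1* at 5.26 ± 0.23, *Col1a2* at 5.13 ± 0.26 and *Col1a1* at 3.22 ± 0.34. *Col1a1* and *Col1a2* encode the 2 chains of collagen I, and they differed at day 4. *Col1a1* had 8.89 and 8.92 there, above its ESC signals of 7.81 and 7.56, while *Col1a2* had 7.31 and 7.07 at day 4, near its 6.74 and 6.96 in ESCs. *Postn* (periostin) rose by 5.21 ± 0.48, *Bgn* (biglycan) by 4.74 ± 0.40, and *Lox*, which cross-links collagen, by 3.65. *Fn1* (fibronectin), *Fbn2* and *Pdgfrb* had log2 fold changes of 0.30, 0.43 and 0.28, and the day 4 means of all 3 were above those of ESCs.

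Other matrix genes changed by less. Among 24 basement membrane genes 11 were called higher, but 6 when only the arrays compared were fitted. *Nid1* (nidogen) rose by 2.25 ± 0.28, and the laminin chain *Lamc1* and *Sparc* by 1.81 and 1.51. Of 30 genes that remodel matrix 20 were called higher (9 with only the arrays compared), with the cross-linking enzyme *Tgm2* at 3.44 ± 0.26, the macrophage elastase *Mmp12* at 3.41 ± 0.28 and the procollagen processing protein *Pcolce* at 3.10 ± 0.23. *Pcolce* had 9.85 and 10.09 at day 16, against 6.76 and 6.98 at day 4, and its ESC signals of 9.01 and 8.86 were also above those of day 4. Of 26 smooth muscle genes 9 were called higher, and 4 without day 16 replicate 1. *Acta2*, the smooth muscle actin, had 11.53 and 11.33 at day 16, against 8.53 and 6.63 at day 4 (3.85 ± 0.57, adjusted p = 0.00071). *Actg2*, the enteric form, rose by 2.38 ± 0.22. *Myh11* and *Cnn1*, markers of mature smooth muscle, had log2 fold changes of 0.64 and -1.07 and no call.

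Many genes of the contractile apparatus of the heart had higher RNA signals at day 16 than at day 4. Of 33 sarcomere and conduction genes 19 were called higher and 0 lower, with a median of 1.38. *Actc1*, cardiac actin, had signals of 11.95 and 12.02 at day 16, against 6.74 and 7.2 at day 4 (log2 fold change 5.01 ± 0.44, adjusted p = 1.1e-05). *Tnnt2*, the cardiac troponin T, had 9.30 and 9.26 at day 16, against 5.82 and 5.89 at day 4 (3.42 ± 0.17, adjusted p = 1.9e-07). *Myh6*, the atrial myosin heavy chain, had 8.31 and 8.78 at day 16, against 5.19 and 5.26 at day 4 (3.32 ± 0.28, adjusted p = 9.4e-06). The arrays of the 2 days were far apart in all 3 genes. The atrial light chains *Myl7* and *Myl4* rose by 3.45 ± 0.41 and 3.21 ± 0.18, and *Pln*, which restrains the calcium pump, by 3.02 ± 0.26. The myosins of the ventricle, *Myh7* and *Myl2*, rose by 2.40 ± 0.15 and 1.64. Late or conduction genes had no call: *Tnni3* was at 0.57, *Ryr2* at 0.64, *Tcap* at 0.07 and *Hcn4* at -0.24. Promoters were found for 31 of the 33 genes, and 19.4% of them held the CArG box of serum response factor on either strand, against 1.63% of all genes with a probe set.

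The regulators of mesoderm and heart divided evenly, with 7 of 35 called higher and 7 lower. Those called higher include *Meis1*, *Tcf21*, *Meis2*, *Mef2c* and *Osr1*. *Meis1* rose by 2.90 ± 0.35, *Tcf21*, a factor of the epicardium, by 2.73 ± 0.39, *Meis2* by 2.12 ± 0.35 and *Mef2c*, which activates muscle genes, by 1.69. *Osr1*, a factor of lateral and intermediate mesoderm, rose by 1.08 ± 0.21, a call lost without replicate 1 of day 16 (0.81) or of day 4 (0.89). Without day 16 replicate 1 the count called higher was 4. Among those called lower were the homeobox factors *Msx2* and *Msx1* and the heart and lateral mesoderm factors *Hand1*, *Tbx3*, *Foxf1* and *Tbx20*. *Msx2* had signals of 6.71 and 5.92 at day 16, against 9.19 and 9.45 at day 4 (log2 fold change -3.0 ± 0.29, adjusted p = 2.4e-05), and its day 16 signals were about those of ESCs (6.07 and 5.87). *Msx1* fell by 2.35 ± 0.22, *Hand1* by 2.19 ± 0.26, *Tbx3* by 1.82 ± 0.32 and *Foxf1* by 1.4. *Tbx20* fell by 1.44, a call lost without day 16 replicate 2 (-1.06) or either day 4 array (-1.38 and -1.49). The cardiac factors *Nkx2-5*, *Isl1*, *Gata4* and *Tbx5* had log2 fold changes between -0.20 and 0.58, none of them called.

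Of 36 measured vessel genes 8 were called higher, 3 were called lower and 25 had no call. *Cdh5*, the cadherin of endothelial junctions, had 8.55 and 9.25 at day 16, against 6.17 and 5.93 at day 4 (2.85 ± 0.29, adjusted p = 4.6e-05), and *Cd34* rose by 2.95 ± 0.22. *Pecam1* and *Tie1*, surface proteins of endothelium, had log2 fold changes of 1.07 and 0.92 and no call, *Tie1* being called without day 16 replicate 2 (1.24). The genes called lower are known from the first vascular progenitors. *Kdr*, the receptor of VEGF, had 8.08 and 7.18 at day 16, against 9.09 and 9.79 at day 4 (-1.81 ± 0.36, adjusted p = 0.0044). *Etv2*, which specifies these progenitors, and the apelin receptor *Aplnr* fell by 1.44 ± 0.31 and 2.20 ± 0.25. The calls of *Kdr* and *Etv2* were lost without day 16 replicate 2 (-1.37 and -1.31) or day 4 replicate 2 (-1.46 and -1.0), so that 1 gene was then called lower, and with only the arrays compared 4 genes were called higher and 1 lower.

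Blood genes divided by lineage. Of 23 erythroid genes 0 were called higher and 1 lower, and the median was -0.50. The 1 call was lost without day 4 replicate 1 or either day 16 array, and 3 genes were called lower without day 4 replicate 2. The embryonic globins depended on the array. *Hbb-bh1* had 8.78 and 4.20 at day 16, against 8.40 and 5.26 at day 4, with replicate 1 above replicate 2 at both days. *Hba-x* had 9.90 and 6.09 at day 16, against 6.86 and 6.19 at day 4, and was called higher when day 16 replicate 2 was left out (3.38). *Hbb-y* had 8.23 and 4.87 at day 16, against 5.60 and 5.40 at day 4. In all 3 genes the day 16 arrays lay on both sides of at least 1 day 4 array.

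In the list of macrophages and leukocytes 27 of 36 genes were called higher and 0 lower, with a median of 2.17, and in contrast to the globins both arrays shared the rise. The mean over the list was 6.73 and 7.02 on the day 16 arrays, against 4.76 and 4.87 on the day 4 arrays. *Lyz2*, the lysozyme of macrophages, had signals of 9.22 and 8.68 at day 16, against 3.80 and 3.89 at day 4 (log2 fold change 5.10 ± 0.26, adjusted p = 2.1e-07). *Csf1r*, the receptor on which macrophages depend, had 7.65 and 8.75 at day 16, against 4.82 and 4.75 at day 4 (3.41 ± 0.26, adjusted p = 4.8e-06). *Adgre1*, a surface receptor of mature macrophages, had 5.91 and 6.34 at day 16, against 3.91 and 4.11 at day 4 (2.11 ± 0.19, adjusted p = 1.1e-05). The day 4 signals of these genes were about those of ESCs. The chemokine *Ccl3* rose by 4.87 ± 0.30, the protease *Ctss* by 4.28 ± 0.29, and the chains of complement C1q, which macrophages secrete, by 2.78 ± 0.23 (*C1qa*), 3.13 ± 0.26 (*C1qb*) and 3.31 ± 0.15 (*C1qc*). *Spi1*, the factor that drives the lineage, had a log2 fold change of 0.61 and no call, and *Mpo* of granulocytes had -0.22. Of 25 complement genes 11 were called higher. They include the C1q chains, the macrophage receptor *C3ar1* (4.62 ± 0.38) and *Cfb* (3.17 ± 0.21), which liver makes.

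Epithelial genes rose together, and all 30 measured genes of simple epithelium had a log2 fold change above 0. Of these 20 were called higher, with a median of 1.41. *Krt7*, a keratin of ducts and trophoblast, had 9.72 and 9.95 at day 16, against 5.8 and 5.86 at day 4 (4.01 ± 0.25, adjusted p = 9.1e-07). *Lgals4*, a lectin of the gut, rose by 3.90 ± 0.20, and the mucins *Muc1* and *Muc13* by 3.32 ± 0.24 and 3.29 ± 0.28. *Cdh1*, the cadherin of ESCs and epithelia, had 10.68 and 10.74 at day 16, against 9.41 and 9.85 at day 4 (1.08 ± 0.22, adjusted p = 0.0049). Its ESC signals were 11.04 and 10.96, so that day 4 was the lowest of the days sampled. The *Cdh1* call was lost without day 4 replicate 1 (0.86). Of 16 squamous genes 5 were called higher. *Krt15*, a keratin of basal layers, rose by 4.19 ± 0.22, and *Krt5* and *Krt14*, the basal pair, by 2.86 ± 0.40 and 1.94 ± 0.26. *Ivl* and *Lor* of the cornified layer had 0.04 and -0.35.

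The stomach protease chymosin and placental genes were also among the highest rises. *Cym* had 11.80 and 12.50 at day 16, against 5.50 and 5.65 at day 4 (6.57 ± 0.50, adjusted p = 4.1e-06). Of 28 genes of trophoblast and placenta 9 were called higher and 1 lower, with a median of 0.38. *Tpbpa*, of the spongiotrophoblast, had 6.98 and 9.38 at day 16, against 2.95 at both day 4 arrays (5.23 ± 0.51, adjusted p = 2.7e-05). *Prl2c5*, a placental hormone of the prolactin family, had 7.12 and 10.81 at day 16, against 2.72 and 3.14 at day 4 (6.04 ± 0.86, adjusted p = 0.00052). Replicate 2 was the higher one for these genes, and the mean over the list was 5.83 and 6.46 at day 16, against 5.26 and 5.32 at day 4. *Plac1*, which giant cells and other trophoblast express, had 6.86 and 7.28 at day 16, against 8.26 and 7.92 at day 4 and no call. With only the arrays compared 5 of the list were called higher.

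Genes of the primitive streak were the clearest group of falls. Of 29 measured, 11 were called lower and 0 higher, against 2.18% of all genes called lower, with a median of -0.78. *Eomes*, a factor of streak and endoderm, had signals of 5.63 and 5.56 at day 16, against 8.12 and 9.76 at day 4 (log2 fold change -3.34 ± 0.57, adjusted p = 0.0017). *Foxh1*, which mediates Nodal signals, had 6.12 and 5.89 at day 16, against 9.21 and 9.35 at day 4 (-3.27 ± 0.17, adjusted p = 2.1e-07). *Lhx1*, of the anterior streak, had 5.23 and 5.16 at day 16, against 7.10 and 8.36 at day 4 (-2.53 ± 0.46, adjusted p = 0.0027). The day 16 signals of *Eomes* and *Lhx1* were about those of ESCs, which were 6.64 and 5.75 for *Eomes* and 5.15 and 5.55 for *Lhx1*. *Mixl1* fell by 2.48 ± 0.59, with the call lost without day 16 replicate 1 (-2.21) or day 4 replicate 2 (-1.79). Members with a low signal at day 4, such as *Tbx6*, *Cdx1*, *Cdx4* and *Wnt3a*, had log2 fold changes between -0.20 and 0.00.

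Other genes with large falls were *Vrtn* (-3.31 ± 0.34), which is linked to the number of vertebrae in pigs, the lipoxygenase *Alox15* (-2.77 ± 0.53), the Nodal co-receptor *Cfc1* (-2.62 ± 0.23), *Fgf15* (-2.48 ± 0.24) and the stem cell receptor *Lgr5* (-2.46 ± 0.40). *Phlda2*, an imprinted growth restrictor of the placenta, had 7.99 and 7.23 at day 16, against 10.01 and 10.77 at day 4 (-2.78 ± 0.32, adjusted p = 0.00011). Its mean in ESCs, 10.14, was like that of day 4. This differs from *Cfc1*, whose mean in ESCs (5.79) was within the range of day 16 (6.39 and 5.65), below the 8.57 and 8.70 of day 4.

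The embryonic miR-302 cluster held the 2 largest falls among the called genes. These miRNAs promote the rapid cycle of pluripotent cells, and their 5 hairpins lie within 580 bases at chr3:127545228-127545807 (plus strand, GRCm38.p6). The array measures the hairpin transcript and not the mature miRNA. *Mir302c* had signals of 3.63 and 3.75 at day 16, against 7.64 and 7.17 at day 4 (log2 fold change -3.72 ± 1.08, adjusted p = 0.038). *Mir302b* had 2.91 and 3.01 at day 16, against 6.65 and 6.27 at day 4 (-3.50 ± 0.98, adjusted p = 0.031). *Mir302a*, *Mir367* and *Mir302d* had log2 fold changes of -3.32 ± 1.12, -3.13 ± 1.02 and -2.83 ± 0.90, with adjusted p of 0.073, 0.061 and 0.058. A fit of only the arrays compared called all 5 lower. In all 5 the arrays of the 2 days were separate, but the SE in the fit of all arrays was large, and the calls of *Mir302b* and *Mir302c* were lost with any 1 of the 4 arrays left out (-3.31 to -3.69 and -3.48 to -3.95). The mature 3p sequences of RefSeq are given to show what the hairpins share, with the seed (bases 2 to 8) in capitals.
mmu-miR-302b-3p: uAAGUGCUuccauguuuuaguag
mmu-miR-302d-3p: uAAGUGCUuccauguuugagugu
mmu-miR-302c-3p: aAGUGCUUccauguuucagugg
mmu-miR-367-3p: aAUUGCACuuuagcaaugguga
The seed of miR-302b-3p and miR-302d-3p is the same, that of miR-302c-3p is annotated 1 base further along the same letters, and that of miR-367-3p is another. The ESC arrays disagreed on this cluster, with 6.60 and 3.54 for *Mir302c* and 5.81 and 3.51 for *Mir302b*.

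Genes of pluripotency did not move as one group after day 4. Of 34 measured, 2 were called higher and 6 lower, with a median of 0.07. Over all genes 6.11% were called higher and 2.18% lower, so that the count called higher was near that share. The oncofetal RNA-binding genes fell: *Lin28a*, which blocks maturation of let-7, had 7.46 and 6.96 at day 16, against 9.24 and 9.48 at day 4 (-2.15 ± 0.18, adjusted p = 9.4e-06). *Trim71* fell by 1.93 ± 0.2 and *Lin28b* by 1.54 ± 0.28. The transcription factor *Sall4* fell by 2.07 ± 0.24. All of these had day 4 signals within 1 log2 unit of ESCs. *Pou5f1*, which ESCs need to stay pluripotent, had 7.44 and 6.84 at day 16, against 8.52 and 9.13 at day 4 (-1.68 ± 0.41, adjusted p = 0.016), and 11.57 and 11.35 in ESCs. Its call was lost without replicate 2 of day 16 or of day 4 (-1.38 each). *Nanog* had 8.06 and 7.76 at day 16, against 7.75 and 8.36 at day 4, and *Esrrb*, *Dppa4*, *Fgf4* and *Utf1* had log2 fold changes between -0.02 and 0.42, with means at day 4 more than 2 log2 units below those of ESCs. *Klf5* and *Sox2* were called higher at day 16. *Klf5*, which epithelia use too, had 9.22 and 9.47 at day 16, against 7.26 and 7.29 at day 4 (2.07 ± 0.19, adjusted p = 1.5e-05), and *Sox2* had 8.81 and 8.73 at day 16, against 7.54 and 7.05 at day 4 (1.48 ± 0.33, adjusted p = 0.009). The *Sox2* call was lost without replicate 2 of day 16 (1.52) or of day 4 (1.23). Neural genes did not accompany it, since *Sox1*, *Pax6*, *Tubb3* and *Nes* had log2 fold changes between -0.13 and 0.50. The remaining neural marker, *Stmn2*, fell, with 6.94 and 6.10 at day 16, against 8.40 and 8.82 at day 4 (-2.09 ± 0.27, adjusted p = 0.00029). In the neural list 1 of 35 genes was called higher, *Sox2* itself, and 2 lower, with *Stmn2* among them.

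**Figure D3:**
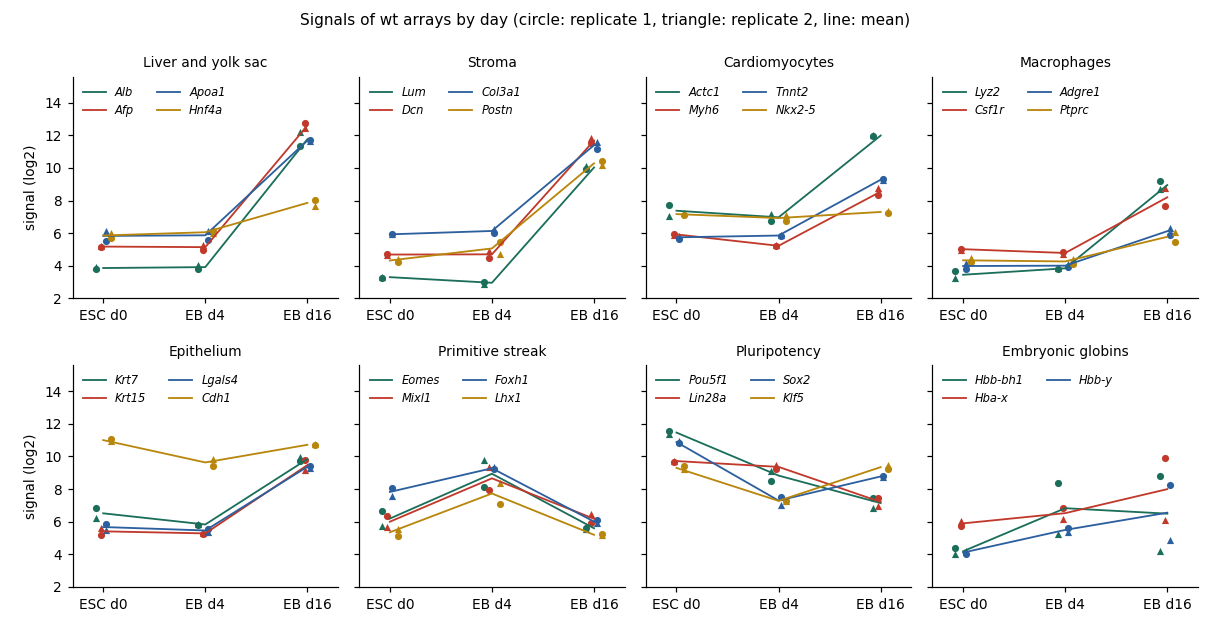
Log2 signal of each wt array (circle, replicate 1, triangle, replicate 2) and the mean of 2 arrays (line) for undifferentiated ESCs and for EBs of day 4 and day 16, for 31 genes in 8 panels by cell type or state. *Alb*, *Lum* and *Lyz2* are flat between ESCs and day 4 and rise by day 16, *Eomes* and *Foxh1* peak at day 4, *Klf5* and *Cdh1* dip at day 4, and the globins split by replicate.

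Genes of the cell cycle were lower at day 16. All 39 measured genes of DNA replication and mitosis had a log2 fold change below 0, with a median of -0.93, and 14 of them were called lower. *Mcm10*, which starts replication forks, had signals of 7.76 and 7.43 at day 16, against 9.08 and 8.85 at day 4 (-1.37 ± 0.14, adjusted p = 5.5e-05). *Cdc6*, which loads the replicative helicase, fell by 1.23 ± 0.22. *Mki67* and *Cdk1* had log2 fold changes of -0.60 and -0.64 and no call. Most members were close to the line, so that the count moved with single arrays: 24 without day 16 replicate 1, 5 without day 16 replicate 2, and 3 with only the arrays compared. The mean over the list was 8.71 and 8.33 at day 16, against 9.47 and 9.33 at day 4. The list of inhibitors and p53 targets also holds cyclins of the D type. Of its 27 genes 8 were called higher and 1 lower. *Gadd45b* had 2.07 ± 0.26, and the gene called lower was no inhibitor but *Ccnd1*, cyclin D1, at -1.13 ± 0.19. Without day 16 replicate 1 the count called higher was 5, and without replicate 2 *Ccnd1* had -0.81 and no call. *Ccnd2*, cyclin D2, rose by 1.34 ± 0.24.

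Signalling genes changed in both directions. In the Wnt list 5 of 37 genes were called higher. They were *Dkk2* (2.78 ± 0.21), *Sfrp1* (2.74 ± 0.29), *Dkk3* (1.67) and *Sfrp2* (1.56), secreted proteins of the Dkk and Sfrp families, and the receptor *Fzd1* (1.45). Of the 6 called lower, *Wnt3* and *Wnt5a* are ligands, *Rspo3* (-1.96) amplifies the signal, *Dkk1* inhibits it, and *Axin2* (-1.10 ± 0.24) and *Lef1* (-1.68 ± 0.34) are a target and an effector. The count called lower was 1 without day 16 replicate 2, 2 without day 4 replicate 1 and 3 without day 4 replicate 2. *Lef1* lost its call without replicate 2 of day 16 (-1.28) or of day 4 (-1.31), *Axin2* and *Dkk1* without day 16 replicate 2 (-0.86 and -1.03) or day 4 replicate 1 (-0.86 and -1.01), *Wnt5a* without day 16 replicate 2 or either day 4 array (-0.79 to -1.7) and *Wnt3* without any 1 of the 4 arrays (-1.48 to -1.84). In the Tgf-beta, Bmp and Nodal list 5 of 37 were called higher, led by the matrix protein *Tgfbi* (2.91 ± 0.23) and the ligand *Tgfb3* (2.2 ± 0.18), and 5 lower, among them *Smad6* and *Id3*, targets of Bmp signals (-1.48 and -1.32). *Id3* lost its call without day 16 replicate 2 or either day 4 array (-1.09 to -1.43). The Fgf ligands *Fgf3* and *Fgf10* fell by 2.26 ± 0.25 and 2.3 ± 0.28, while the receptor *Fgfr3* rose by 1.75. In the Igf list 6 of 17 were called higher and 0 lower. The binding proteins *Igfbp1*, *Igfbp7* and *Igfbp5* rose by 5.10 ± 0.27, 4.29 and 3.86, and the ligand *Igf1* had 8.09 and 8.47 at day 16, against 6.15 and 5.57 at day 4 (2.42 ± 0.24, adjusted p = 3.9e-05).

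Imprinted genes gave 9 calls higher and 1 lower among 23. *Plagl1*, a zinc finger factor of the imprinted network, had 11.22 and 11.26 at day 16, against 6.22 and 5.94 at day 4 (5.16 ± 0.31, adjusted p = 5.9e-07). *Dlk1*, a fetal Notch family protein, had 11.72 and 11.80 at day 16, against 7.82 and 7.61 at day 4 (4.04 ± 0.20, adjusted p = 1.9e-07). *Meg3*, the non-coding RNA expressed from the other allele of that locus, rose by 1.26 ± 0.19. *Peg10*, *Mest* and *Slc38a4* had log2 fold changes between -0.37 and 0.04. Of the methylation enzymes *Dnmt3b* fell, with 7.16 and 7.41 at day 16, against 9.04 and 9.70 at day 4 (-2.09 ± 0.24, adjusted p = 0.00012). *Dnmt1* and *Dnmt3a* had -0.36 ± 0.16 and 0.60 ± 0.22, with no call.

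Genes of low oxygen were a case where the day 4 arrays disagreed. The mean over 24 genes was 10.05 and 9.94 at day 16, against 10.01 and 8.99 at day 4, so that day 4 replicate 1 was at the level of day 16. *Ndrg1*, *Adm* and *Vegfa* were called higher, and 6 genes were called without day 4 replicate 1, 2 without day 4 replicate 2, when *Adm* had 1.44. *Vegfa*, the vessel growth factor, had 10.29 and 10.20 at day 16, against 8.91 and 7.85 at day 4 (1.86 ± 0.35, adjusted p = 0.0035). Interferon and antigen genes gave 5 calls higher of 21, and 3 without day 16 replicate 2, with *Ifit1*, an interferon-induced gene, at 2.39 ± 0.42. Of 21 genes of fat storage 6 were called higher, among them *Cpt1a*, which brings fatty acids into mitochondria (3.04 ± 0.23), and 1 lower, the desaturase *Scd1* (-1.44 ± 0.27). Lists of other tissues held few calls. No gene of 20 for skeletal muscle was called, 1 of 17 for cartilage and bone, 0 of 22 for the germ line and 0 of 20 for Polycomb and ESC chromatin, and of 37 *Hox* genes 2 were called lower, *Hoxb6* and *Hoxd1*. *Hoxb6* kept its call only without day 4 replicate 2 among the single arrays left out and had -0.63 to -1.23 otherwise. Of 14 control genes 1 was called, *B2m* (1.93 ± 0.28), a subunit of MHC class I, and the other 13 lay between -0.51 and 0.52.

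The same interval in the mutant EBs gave fewer calls. In *Dnmt1*-/- EBs 725 genes were called higher (3.64%) and 84 lower (0.421%), and in TKO EBs 218 were called higher (1.09%) and 148 lower (0.742%). The log2 fold changes of these comparisons share no array with that of wt EBs, but the fit gives all of them the same estimate of the spread. Of the 1218 genes called higher in wt EBs, 496 were also called higher in *Dnmt1*-/- EBs, which is 40.7% of the wt list and 68.4% of the *Dnmt1*-/- list, and 134 in TKO EBs (11% and 61.5%). Of the 434 genes called lower in wt EBs, 53 were shared with *Dnmt1*-/- EBs (12.2% and 63.1%) and 30 with TKO EBs (6.91% and 20.3%). Over the 1218 genes called higher the median log2 fold change was 1.51 in wt EBs, against 0.88 in *Dnmt1*-/- EBs and 0.30 in TKO EBs. Among the 58 genes that rose by at least 4 in wt EBs, the medians were 3.26 in *Dnmt1*-/- EBs and 1.08 in TKO EBs. The genes were chosen for their rise in wt EBs, so a smaller median elsewhere is partly set by that choice.

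The difference of the changes was tested gene by gene, with the same 4 wt arrays as above. A difference is the wt log2 fold change minus that of the mutant, so that a negative one may be a smaller rise or a deeper fall in wt EBs. The wt change exceeded that of *Dnmt1*-/- EBs in 202 genes (1.01%) and that of TKO EBs in 684 (3.43%), and it lay below them in 66 (0.331%) and 164 genes (0.823%). Of the genes called higher in wt EBs, 195 had a higher log2 fold change than in *Dnmt1*-/- EBs and 565 than in TKO EBs, while 6 and 1 had a lower one. Of those called lower, 18 and 90 fell further in wt EBs than in *Dnmt1*-/- and TKO EBs. Both sets of genes were chosen on the same wt arrays, so the direction of these differences is partly set by that choice. With only the arrays compared the numbers of probe sets with a positive difference were 30 and 394, against 225 and 794 in the fit of all arrays. Single arrays moved these counts too. Positive differences from *Dnmt1*-/- EBs were 112 without wt day 4 replicate 1, 138 and 122 without *Dnmt1*-/- day 16 replicate 1 and 2, and negative ones, 89 in all, were 24 and 55 without these 2 arrays, 30 and 37 without wt day 4 replicate 1 and 2 and 54 without *Dnmt1*-/- day 4 replicate 2. Against TKO EBs positive differences were 509 and 502 without TKO day 4 replicate 1 and 2, and negative ones, 234 in all, were 103 and 117 without these, 141 without TKO day 16 replicate 2, 151 without wt day 16 replicate 2 and 129 without wt day 4 replicate 1.

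Among the lists set side by side, macrophage genes had the most called differences from *Dnmt1*-/- EBs. The wt log2 fold change was called higher in 14 of 36 genes against *Dnmt1*-/- EBs and in 20 against TKO EBs, while the list median of 2.17 in wt EBs stood against 0.24 for *Dnmt1*-/- and 0.13 for TKO EBs. With only the arrays compared the count against *Dnmt1*-/- EBs was 5. *Lyz2* rose by 5.10 in wt EBs, against 2.01 in *Dnmt1*-/- EBs (difference 3.09, adjusted p = 0.0019) and 0.11 in TKO EBs (difference 4.99, adjusted p = 2.3e-05). *Csf1r* rose by 3.41 in wt EBs, against 1.95 in *Dnmt1*-/- EBs, and that difference of 1.47 had an adjusted p of 0.13. For *Adgre1* the change was 2.11 in wt EBs, against 0.05 in *Dnmt1*-/- EBs and 0.09 in TKO EBs (adjusted p = 0.0025 and 0.00093).

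Genes of liver and yolk sac fell into separate patterns. *Alb* rose by 7.84 in wt EBs, against 4.97 in *Dnmt1*-/- EBs (adjusted p = 0.017 for the difference) and 0.06 in TKO EBs (adjusted p = 9.4e-06). The TKO arrays had 3.97 and 4.01 at day 16 and 3.95 and 3.91 at day 4. *Afp* rose in all lines, by 7.45 in wt EBs, against 6.91 in *Dnmt1*-/- and 4.42 in TKO EBs, and only the difference from TKO EBs was called (3.04, adjusted p = 0.0046). *Apoa1*, *Apob*, *Ttr* and *Rbp4* changed by 4.60 to 5.81 in wt EBs, against 5.10 to 6.09 in *Dnmt1*-/- and 3.61 to 4.52 in TKO EBs, with no difference called. *Mttp* rose by 1.63 in wt EBs and by more in *Dnmt1*-/- EBs, 3.67 (difference -2.04, adjusted p = 0.028). Of 32 plasma protein genes 7 had a higher log2 fold change in wt than in *Dnmt1*-/- EBs and 19 than in TKO EBs, as did 6 of 34 lipoprotein genes against TKO EBs. With only the arrays compared these counts were 0, 15 and 1. The count of plasma proteins against *Dnmt1*-/- EBs was 12 without wt day 16 replicate 1 and 4 without wt day 4 replicate 1, and that of lipoprotein genes against TKO EBs was 3 without wt day 4 replicate 2, TKO day 16 replicate 2 or TKO day 4 replicate 2. The difference of *Alb* from *Dnmt1*-/- EBs was no longer called without wt day 16 replicate 2 (2.44), either wt day 4 array (2.77 and 2.98) or *Dnmt1*-/- day 4 replicate 2 (2.76), and that of *Mttp* without 5 of the 8 arrays in turn (-1.75 to -2.16).

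Stroma differed from TKO EBs in 20 of 38 genes and from *Dnmt1*-/- EBs in 10. *Dcn* rose by 6.97 in wt EBs, against 4.90 in *Dnmt1*-/- EBs and 0.00 in TKO EBs, where its arrays had 5.42 and 4.74 at day 16 and 5.18 and 4.98 at day 4. *Lum* rose by 7.07 in wt EBs, against 3.80 in *Dnmt1*-/- EBs and 0.66 in TKO EBs. All 4 differences were called (adjusted p from 2.7e-06 to 0.045), although that of *Dcn* from *Dnmt1*-/- EBs was lost with 7 of 8 arrays left out in turn (1.55 to 2.28) and with array medians subtracted (2.04). The count of stromal genes against *Dnmt1*-/- EBs was 4 or 5 without either wt day 4 array, either *Dnmt1*-/- day 4 array or *Dnmt1*-/- day 16 replicate 2, and with only the arrays compared it was 0 (14 against TKO EBs). Of the 33 heart genes 9 differed from TKO EBs, with *Actc1* at 5.01 in wt EBs, against 3.88 in *Dnmt1*-/- and 1.65 in TKO EBs. The only call against *Dnmt1*-/- EBs, *Tnnt2* (3.42 in wt, 2.26 in *Dnmt1*-/- EBs, adjusted p = 0.049), was lost with 7 of 8 arrays left out in turn (0.9 to 1.24). In simple epithelium 5 of 30 genes differed from *Dnmt1*-/- EBs and 13 from TKO EBs. These counts were 1 to 3 without 7 of the 8 single arrays and 6 or 7 without wt day 4 replicate 1 or any 1 TKO array, and 1 and 5 with only the arrays compared. *Lgals4* rose by 3.90 in wt EBs, against 0.19 and 0.06 in *Dnmt1*-/- and TKO EBs (adjusted p = 9.2e-05 and 2.3e-05 for the differences).

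**Figure D4:**
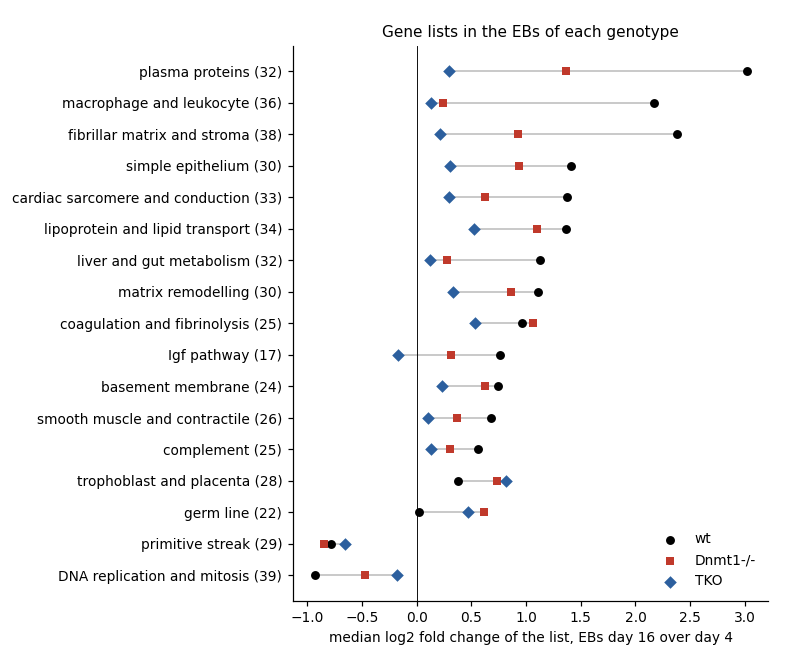
Median log2 fold change (day 16 over day 4, horizontal axis) of 17 gene lists (rows, number of measured genes in brackets) in wt (circle), *Dnmt1*-/- (square) and TKO EBs (diamond). The wt median is highest for plasma proteins, macrophages and matrix, lies near both mutants for the primitive streak (-0.78 in wt EBs, against -0.84 in *Dnmt1*-/- EBs and -0.65 in TKO EBs), and is the lowest of the genotypes for placenta, germ line and DNA replication.

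Other genes had a lower log2 fold change in wt EBs than in the mutants, through a smaller rise or a deeper fall. *Xist*, the RNA that coats an inactive X chromosome, had 3.89 and 4.05 at day 16, against 4.22 and 4.36 at day 4 in wt EBs, a change of -0.32. In *Dnmt1*-/- EBs it rose by 4.99, with 9.28 and 9.38 at day 16, against 4.11 and 4.56 at day 4, and in TKO EBs by 2.78. Both differences were called (-5.31, adjusted p = 2.5e-05, and -3.10, adjusted p = 0.00025). Placental and early mesoderm genes were others. *Prl7a1* changed by 0.95 in wt EBs, against 4.32 in *Dnmt1*-/- and 3.20 in TKO EBs, with the difference from *Dnmt1*-/- EBs called (adjusted p = 0.019) but lost without wt day 16 replicate 1 or without any 1 of the day 4 arrays of both lines (-2.87 to -3.6). *Hand1* and *Msx2*, which fell by 2.19 and 3.0 in wt EBs, changed by 1.17 and 0.25 in TKO EBs (differences -3.36 and -3.25, adjusted p = 0.00028 and 0.00069). At day 4 *Hand1* had 9.53 and 9.24 in wt EBs, against 6.39 and 6.04 in TKO EBs, so that the TKO arrays started lower. *Foxh1* fell in wt EBs by 3.27, against 2.10 in *Dnmt1*-/- EBs and 0.96 in TKO EBs, and both differences were called (adjusted p = 0.043 and 0.00019). That from *Dnmt1*-/- EBs was lost with 7 of 8 arrays left out in turn (-1.06 to -1.24). By contrast, *Eomes* and *Mixl1* fell by 2.48 to 3.34 in wt EBs and changed by -2.45 to -3.04 in the mutants, with no difference called.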

How the data were processed

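Total RNA of whole EBs and ESCs was hybridised to Affymetrix GeneChip Mouse Gene 1.0 ST arrays, 1 array per sample. The authors deposited log2 signals per probe set made with RMA, which corrects background, normalizes between arrays and summarizes the probes of a set. Its version was not given in the sources used here, and no detection calls were used. With 2 arrays a group, their number limits the precision.

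Group means of all 18 arrays (9 groups) were fitted with limma 3.58.1 in R 4.3.3 (lmFit, eBayes, 9 residual and 3.32 prior degrees of freedom), so that all groups share 1 estimate of the spread. Tests were two-sided, with Benjamini-Hochberg adjustment over all 35512 probe sets. A call needs a 2-fold change and an adjusted p under 0.05. The median SE was 0.203 for a log2 fold change and 0.287 for a difference of changes. On data simulated for day 16 against day 4 in wt, the fit called 83 of 100 log2 effects of 1.5, 98 of 100 of 2.5, and 7 of 35312 probe sets without one. The simulated noise was independent between arrays, with 1 spread per probe set for all groups. These counts therefore hold for that setting and not for deviations that arrays share or for groups of unequal spread.

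GEO's platform annotation gave 21789 probe sets 1 symbol, 1621 several and 12102 none, and of the called probe sets 1744, 51 and 288 were of these kinds. A gene is given from its 1-symbol probe set with the highest mean signal. Genes named are the 20 largest rises and falls, up to 6 called members of each list with uncalled markers and family neighbours, up to 10 genes each way per test of a difference, and genes the study names. Further called list members (*Aldh1a2*, *Axin2*, *Cps1* and others) were named after their values were seen. The members, lists and tests were chosen with earlier results of these data known. Promoter and miRNA sequences are RefSeq's on GRCm38.p6. Alternatives were other normalizations, a filter on low signals, fits of only the arrays compared, and trend and robust variance. Further ones were 1 probe set per gene, the replicate number as a block and each array left out.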

Additional observations from a re-analysis of the deposited data

Results flagged for a closer look

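The change between day 4 and day 16 differed between wt and mutant EBs, by the limma test of the difference itself, for 202 genes with a higher and 66 with a lower log2 fold change than in *Dnmt1*-/- EBs, and for 684 with a higher and 164 with a lower one than in TKO EBs. A lower one can be a deeper fall, as for 18 and 90 genes called lower in wt EBs. These counts and the genes with the largest differences each way are listed for that reason. All values below are differences of log2 fold changes, wt minus mutant, with an adjusted p under 0.05. No cause was tested.

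Against *Dnmt1*-/- EBs the wt log2 fold change was higher for the stomach protease *Cym* (5.75), the secreted *Bpifb1* (4.45), the chemokine *Ccl3* (4.30), the dehydrogenase *Aldh1a7* (4.16), the plasma protein *Ahsg* (4.02), *Gsdmc2* (3.93), the factor XIII chain *F13a1* (3.88), the semaphorin *Sema3c* (3.76), the gut lectin *Lgals4* (3.71) and the corticosteroid carrier *Serpina6* (3.65). It was lower for the X-inactivation RNA *Xist* (-5.31), the gastric protease *Pgc* (-3.51), the cathepsin *Ctsh* (-3.38), the placental hormone *Prl7a1* (-3.36), the peptidase *Dpp4* (-3.16), the channel *Mcoln3* (-2.79), *Lgals2* (-2.73), *Clic6* (-2.57), the transporter *Slco4c1* (-2.40) and the imprinted adaptor *Grb10* (-2.33).

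Against TKO EBs the wt log2 fold change was higher for *Alb* (7.78), the proteoglycans *Dcn* (6.97) and *Lum* (6.41), *Cym* (6.51), *Ahsg* (6.13), the glucuronosyltransferase *Ugt2b34* (5.8), the imprinted factor *Plagl1* (5.69), *Sema3c* (5.17), lysozyme *Lyz2* (4.99) and vitronectin *Vtn* (4.87). It was lower for *Plac1* (-3.92) and *Phlda2* (-3.64) of the placenta, the mesoderm factors *Hand1* (-3.36), *Msx2* (-3.25) and *Tbx3* (-2.73), the Nodal co-receptor *Cfc1* (-3.29), *Gm1698* (-3.17), *Xist* (-3.10), *Greb1l* (-2.96) and *Prdm6* (-2.46). *Cym*, *Ahsg* and *Sema3c* stand in both lists of positive differences, and *Xist* in both lists of negative ones. The comparisons share the 4 wt arrays.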

How the results depend on the processing

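Counts are of probe sets. In wt EBs, 1398 were called higher and 685 lower at day 16. Array medians subtracted gave 1347 and 736, a further quantile normalization 1486 and 586, the filter on the lowest 30% 1175 and 643, and trend and robust variance 1400 and 685. Only the arrays compared gave 917 and 313, and for the differences 30 positive and 3 negative ones against *Dnmt1*-/- EBs (225 and 89 in the fit of all arrays) and 394 and 81 against TKO EBs (794 and 234). This fit has fewer samples. With single arrays left out, calls ranged from 1243 to 1410 higher and from 321 to 1054 lower. The lowest was reached without day 16 replicate 2, when 270 of the 321 were among the 685. Against *Dnmt1*-/- EBs they ranged from 112 to 258 and from 24 to 89, and against TKO EBs from 502 to 764 and from 103 to 324. With 1 probe set per gene, 110 genes had a negative difference from *Dnmt1*-/- EBs, against 66.

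The study states that its array analysis was done in 2 independent experiments. No label says which arrays share an experiment, and same-numbered arrays were not taken as pairs. The correlation of their deviations was positive in all 36 pairs of groups, 0.041 to 0.501 (median 0.273, wt day 16 with day 4 0.426). The replicate block called 1430 higher and 764 lower in wt EBs, 288 and 123 against *Dnmt1*-/- EBs, and 1034 and 354 against TKO EBs. It also called *Mir302a* (-3.32), *Mir302d* (-2.83), *Mir367* (-3.13) and *Cnn1* (-1.07) lower. The cause of these moves was not tested.

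Of 233 called genes examined, 53 lost their call under at least 1 alternative, and no direction turned. The other 180 kept it under every alternative examined gene by gene that still held their probe set. A gene dropped by the filter on low signals was not counted as losing its call. The fit with 1 probe set per gene was compared by its counts only. Of the named differences 51 of 68 from *Dnmt1*-/- EBs and 55 of 141 from TKO EBs lost their call under at least 1 alternative. Leaving aside the fit of only the arrays compared, 39 and 98 kept it. Without detection calls, no bound can be set for low signals.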

Other observations

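Gene families were also counted by symbol, chosen after values were seen, against 6.11% of genes called higher and 2.18% called lower. Cell surface and matrix families rose in part: 11 of 44 collagens, 6 of 10 laminins, 11 of 31 integrins, 9 of 12 annexins and 8 of 23 claudins were called higher and 0 lower. Of 21 cathepsins, lysosomal proteases, 10 were called higher, led by *Ctss*, and of 47 serpins, inhibitors of serine proteases, 15. In the prolactin family 8 of 19 were called higher. Among detoxifying enzymes 6 of 16 glutathione S-transferases, 3 of 10 UDP-glucuronosyltransferases and 11 of 81 cytochromes P450 were called higher. Another 2 of the 81, *Cyp26a1* and *Cyp4f15*, were called lower. Of 34 protocadherins, adhesion molecules known from neurons, 9 were called higher. Kinesins, the motors of the spindle and of transport, went the other way, with 0 of 37 called higher and 9 lower. Of 1015 olfactory and 163 vomeronasal receptors none was called at the 2-fold line, and of 49 ribosomal proteins 1, *Rpl12*, was called lower.

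Replicates disagreed at single genes. *Prl2a1*, a placental hormone, had 8.22 and 10.92 at day 16, against 4.29 and 4.83 at day 4, with replicate 2 the higher at day 16. *Arhgef6*, an exchange factor, had 7.06 and 9.48 at day 16, against 4.21 and 3.75 at day 4. At day 4 the wide gaps were in genes of low oxygen and sugar metabolism, with 10.75 and 8.18 for *Bnip3*, 10.14 and 7.91 for *Pgm1* and 8.75 and 6.57 for *Gbe1*, replicate 1 being the higher.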
